A study of Mus musculus with 8 samples.

Results

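The 9 genes of the *HoxD* cluster, from *Hoxd13* to *Hoxd1*, were followed at postnatal day 10 (PD10), in the first weeks of life when uterine glands form, in uteri with and without a conditional deletion of *Ezh2* (*Ezh2 Amhr2*-Cre cKO and control). They were chosen by symbol, and all 9 have a row among the 27179 genes in the count files. Among them, 8 passed the filter on low counts and belong to the 16658 genes tested, and *Hoxd1* did not pass. RNA of the whole uterus was sequenced as stranded mRNA libraries, 1 library per mouse. The 4 control mice carried the Ezh2 f/f genotype, in which exons of *Ezh2* are flanked by loxP sites but no Cre recombinase is present. The 4 cKO mice had the same floxed allele together with *Amhr2*-Cre (Ezh2 f/f; Acre in the labels), so that the floxed *Ezh2* allele was common to all 8 mice. *Amhr2*-Cre acts in the mesenchyme of the Mullerian duct and the stroma and muscle that arise from it, and the uterine epithelium, vessels and blood cells in the same RNA do not come from these cells.

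The *Hox* genes code for transcription factors that give cells their position along the body axis. In each cluster they lie in the order of their paralogue groups, and genes near the group 13 end are used later and further toward the tail than genes near the group 1 end. EZH2 is the enzyme of Polycomb repressive complex 2 that trimethylates lysine 27 of histone H3, and silent *Hox* genes are among the best known carriers of this mark. Genes of the posterior *HoxD* end are known for the limb, the genital tubercle and the end of the gut. *Hoxa10* and *Hoxa11* pattern the uterus, and *Hoxd11* is a partner of *Hoxa11* in the reproductive tract.

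The start of *Hoxd13* and that of *Hoxd12* lay 6.8 kb apart on chromosome 2 of GRCm38, and all 9 genes were on the plus strand. By their RefSeq spans, *Hoxd11* started 11.3 kb, *Hoxd10* 16.0 kb, *Hoxd9* 29.5 kb and *Hoxd8* 36.4 kb from the start of *Hoxd13*, followed by *Hoxd3* at 43.8 kb, *Hoxd4* at 53.8 kb and *Hoxd1* at 94.8 kb. The span of *Hoxd3* contains that of *Hoxd4*, and the coding part of *Hoxd4* comes first in the usual order of the cluster. The 250 bases before the start site are shown for the 4 genes with an adjusted p-value under 0.05 in the comparison of genotypes, from RefSeq on GRCm38.p6, plus strand, 5′ to 3′. Every CG dinucleotide is in capitals, since Polycomb complexes in mammals are found mostly at promoters rich in CG. *Hoxd11* has windows for a pair of start sites, and the one of the coding transcript was taken, 14.1 kb from the start of *Hoxd13*. The start site of the *Hoxd10* window is 23.7 kb from it, since the RefSeq span of *Hoxd10* begins further upstream.
Hoxd13, chr2:74667975-74668224: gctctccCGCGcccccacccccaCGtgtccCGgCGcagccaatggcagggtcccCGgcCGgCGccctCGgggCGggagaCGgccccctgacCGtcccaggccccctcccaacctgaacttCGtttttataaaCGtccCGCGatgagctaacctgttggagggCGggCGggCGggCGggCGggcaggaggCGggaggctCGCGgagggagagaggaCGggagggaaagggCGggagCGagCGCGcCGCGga
Hoxd12, chr2:74674763-74675012: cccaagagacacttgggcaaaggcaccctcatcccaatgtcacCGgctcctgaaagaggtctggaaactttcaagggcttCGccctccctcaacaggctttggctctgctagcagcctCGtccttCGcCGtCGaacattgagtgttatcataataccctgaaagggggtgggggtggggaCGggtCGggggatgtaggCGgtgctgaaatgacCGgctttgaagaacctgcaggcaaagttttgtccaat
Hoxd11, chr2:74682073-74682322: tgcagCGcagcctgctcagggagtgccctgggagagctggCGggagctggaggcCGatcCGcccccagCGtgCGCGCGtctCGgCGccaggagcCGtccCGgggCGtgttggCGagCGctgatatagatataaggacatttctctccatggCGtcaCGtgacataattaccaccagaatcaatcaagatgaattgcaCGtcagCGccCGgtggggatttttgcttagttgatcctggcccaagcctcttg
Hoxd10, chr2:74691641-74691890: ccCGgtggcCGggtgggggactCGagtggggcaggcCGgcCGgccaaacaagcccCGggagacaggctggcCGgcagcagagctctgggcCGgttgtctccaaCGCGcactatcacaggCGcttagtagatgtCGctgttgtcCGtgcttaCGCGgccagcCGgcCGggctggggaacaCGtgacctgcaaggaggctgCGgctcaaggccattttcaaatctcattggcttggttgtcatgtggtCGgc
The *Hoxd13* window held 31 CG dinucleotides at a GC content of 74.4%, and 94.8% of the 32851 windows of this length before mouse start sites held fewer. The *Hoxd12* window held 10, which is more than 62.2% of all windows. The windows of *Hoxd11* and *Hoxd10* held 20 each. Over all windows the median was 6, with quartiles of 2 and 16. Among the other members, *Hoxd1* had 24, *Hoxd9* 13, *Hoxd3* 12, *Hoxd8* 6 and *Hoxd4* 3. The letters TATAAA, the core of a TATA box, were found on either strand in 2 of the 10 member windows, those of *Hoxd13* and *Hoxd4*, and in 12.4% of all windows. The windows of the genes that rose in cKO uteri thus held 31 and 10, above and below the 20 in the window shown for each gene that fell. The other *Hoxd11* window, before the start site at 11.3 kb, held 2, fewer than any of these.

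Total counts were between 25287141 and 36685807 per library, so that 3 counts, the limit that a count of 0 allows, amount to 0.0824 to 0.117 CPM (counts scaled to library size, with TMM factors). This limit covers counting error only. *Ezh2* itself was between 35.4 and 54.7 CPM in control and between 30.4 and 40.7 CPM in cKO libraries, which overlap, and counts over the whole gene do not single out the floxed exons. Markers of uterine stroma, smooth muscle and epithelium were present in all 8 libraries. Summed CPM of the 8 stroma markers was 3963.4 to 5110.9 in control and 4263.5 to 5038.9 in cKO uteri. Markers of fat stood apart: their summed CPM was 2.46 to 4.02 in the controls, 88.1, 208 and 93.0 in cKO libraries 1, 2 and 3, and 3.36 in cKO library 4.

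In control uteri the genes of the middle of the cluster gave most of the *HoxD* reads, and its ends were nearly silent. Per kilobase of the longest RefSeq-matched coding transcript, the control mean of *Hoxd10* was 52.6 ± 3.95 CPM per kb (SD, n = 4), the highest of the cluster. *Hoxd11* followed at 32.2 ± 1.49 and *Hoxd9* at 31.6 ± 2.57 CPM per kb, and these neighbours in the order overlapped between libraries. Next came *Hoxd8* with 14.0 ± 0.937, *Hoxd4* with 7.51 ± 1.03 and *Hoxd3* with 3.25 ± 0.241 CPM per kb, each below all libraries of the gene before it. *Hoxd12* at 0.206 ± 0.0468, *Hoxd13* at 0.122 ± 0.0703 and *Hoxd1* at 0.0400 ± 0.00881 CPM per kb closed the order, and these neighbours overlapped. The place of *Hoxd11* depends on the length used, since the union of its exons is 4212 bases and the coding transcript 1111 bases. With the union its means were 8.50 CPM per kb in control and 5.84 CPM per kb in cKO uteri, below *Hoxd8* with 13.5 and 12.6 CPM per kb in both, and on this scale its mean was above that of *Hoxd4* in control (6.52) and below it in cKO uteri (7.91 CPM per kb).

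In cKO uteri the order of the levels changed at *Hoxd13* and at *Hoxd11*. *Hoxd10* stayed first at 43.9 ± 2.55 CPM per kb (SD, n = 4), and *Hoxd9* at 30.9 ± 3.15 now lay above *Hoxd11* at 22.1 ± 1.93 CPM per kb in all libraries. *Hoxd8* at 13.1 ± 1.57 and *Hoxd4* at 9.11 ± 3.17 CPM per kb overlapped, and *Hoxd3* was at 4.26 ± 0.838 CPM per kb. *Hoxd13* at 1.10 ± 0.228 passed *Hoxd12* at 0.562 ± 0.225 CPM per kb, without overlap between their libraries, and *Hoxd1* stayed last at 0.0837 ± 0.0262 CPM per kb.

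**Figure D1:**
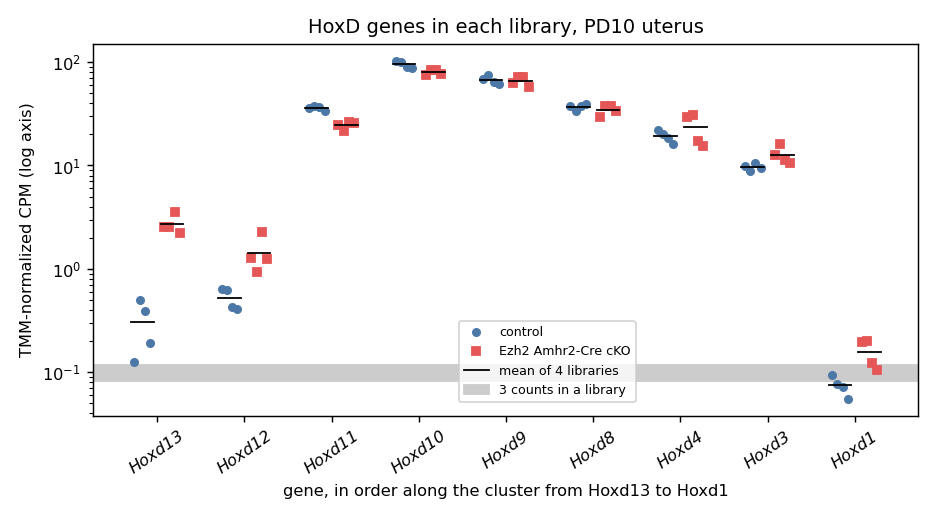
TMM-normalized CPM (log axis) of the 9 *HoxD* genes in each of 4 control (circles) and 4 cKO (squares) libraries, with the mean of each genotype as a line and the CPM that corresponds to 3 counts as a grey band. The cKO libraries of *Hoxd13* sit between 2.24 and 3.54 CPM, all above the highest control of 0.503 CPM, whereas those of *Hoxd11* lie below all controls.

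Between the genotypes, the 2 genes at the *Hoxd13* end rose, the next 2 fell by less, and no other *HoxD* gene passed the test. Of the 8 genes tested, 2 were differentially expressed (DE), defined as a fold change over 2 with an adjusted p-value under 0.05 by edgeR's quasi-likelihood test, and both were higher. Over all genes tested, 1.30% were DE, with 0.666% higher and 0.636% lower in cKO uteri. With the adjusted p-value alone, 4 of the 8 *HoxD* genes passed, 2 higher and 2 lower, against 5.34% of all genes, of which 2.62% were higher and 2.71% lower. The libraries of the genotypes did not overlap for 5 of the 8, with *Hoxd3* as the fifth, against 12.3% of all genes tested. The median log2 fold change was 0.12 over the 8 genes and 0.00 over all genes. In RNA of a whole uterus, fewer cells of a type and less RNA per cell cannot be told apart.

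*Hoxd13*, which shapes the digits and the external genitalia, was nearly silent in control uteri and clearly detected in cKO uteri. It was counted 4, 13, 11 and 7 times in the control libraries and 66, 76, 115 and 64 times in the cKO libraries. The corresponding CPM values were 0.126, 0.503, 0.392 and 0.192 in the controls and 2.56, 2.54, 3.54 and 2.24 in the cKO libraries. Every cKO library was above every control, and cKO library 4, the one without raised fat markers, was above them as well. The mean went from 0.303 ± 0.175 to 2.72 ± 0.566 CPM (SD, n = 4), a 9.24-fold rise, or 3.21 on the log2 scale (SE 0.33, edgeR adjusted p = 1.64e-04), where SE is the standard error of the fitted log2 fold change. Leaving out any 1 of the 8 libraries kept the log2 fold change between 2.95 and 3.54, with an adjusted p-value under 0.05 each time. With cKO library 4 alone against the 4 controls it was 2.93, with an adjusted p of 0.0734 by edgeR in a fit where this single library is taken to vary as the controls do, and with the fat markers as a covariate it was 2.92 (adjusted p = 0.00927). These are not separate checks, since the fat score was 2.77 to 3.84 in cKO libraries 1 to 3 and -2.33 to -1.23 in the controls, with cKO library 4 at -2.09, so that both rest on cKO library 4 for the cKO side.

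*Hoxd12*, the neighbour of *Hoxd13* that acts with it in the limb bud, also rose from a low level. Control libraries held 0.631, 0.619, 0.428 and 0.412 CPM, from 12 to 20 counts each, and cKO libraries 1.28, 0.937, 2.25 and 1.23 CPM, from 28 to 73 counts each. The genotypes did not overlap, cKO library 4 included, and cKO library 3 was the highest for *Hoxd12* as it was for *Hoxd13*. The mean rose 2.74-fold from 0.522 ± 0.119 to 1.42 ± 0.571 CPM (SD, n = 4), a log2 fold change of 1.46 (SE 0.31, edgeR adjusted p = 0.0182). This call depended on single libraries: the adjusted p was 0.055 without control library 3, 0.0536 without control library 4 and 0.0539 without cKO library 3, where the log2 fold change was 1.13. With cKO library 4 alone against the controls the log2 fold change was 1.24 (adjusted p = 0.433 by edgeR), and with the fat markers as a covariate, which rests on the same library, 1.35 (adjusted p = 0.32).

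*Hoxd11*, a partner of *Hoxa11* in the kidney, the forearm and the reproductive tract, was lower in all cKO uteri. It was at 35.7, 37.4, 36.6 and 33.5 CPM in control and at 24.5, 21.7, 26.5 and 25.8 CPM in cKO libraries, so that all cKO libraries, library 4 included, lay below all controls by several CPM. The mean fell from 35.8 ± 1.65 to 24.6 ± 2.14 CPM (SD, n = 4), a log2 fold change of -0.54 (SE 0.08, edgeR adjusted p = 0.00116). Its exons share 455 bases with those of the transcript *Gm28309*, and reads in that stretch could belong to either. The log2 fold change was between -0.58 and -0.48 when any 1 library was left out, and the adjusted p-value stayed under 0.05 in all 8 fits. With cKO library 4 alone against the controls it was -0.47 (adjusted p = 0.163), and with the fat markers as a covariate -0.47 (adjusted p = 0.101 by edgeR).

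*Hoxd10*, which is known for the hind limb and its motor neurons and was the most abundant gene of the cluster per kilobase, fell by less. Control libraries were at 103, 100, 90.6 and 88.3 CPM and cKO libraries at 75.3, 84.1, 83.3 and 76.2 CPM. The genotypes did not overlap, although the lowest control and the highest cKO library were close. The mean went from 95.5 ± 7.17 to 79.7 ± 4.63 CPM (SD, n = 4), a log2 fold change of -0.26 (SE 0.07, edgeR adjusted p = 0.0395). Its exons share 104 bases, 5.73% of them, with those of *Gm28309* as well. This value rested on the full set of libraries: the adjusted p was over 0.05 when any 1 library other than control library 4 was left out, from 0.052 without cKO library 4 to 0.143 without control library 1. The log2 fold change was -0.32 in cKO library 4 alone against the controls (adjusted p = 0.444) and -0.33 with the fat markers as a covariate (adjusted p = 0.197 by edgeR).

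**Figure D2:**
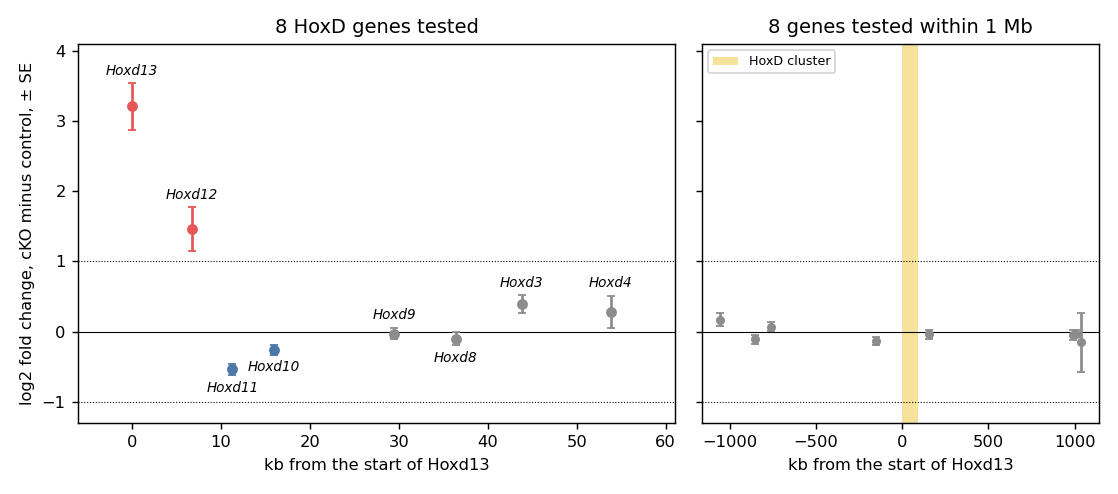
Log2 fold change between cKO and control (edgeR, bars are the standard error) against distance in kb from the start of *Hoxd13* to the start of each RefSeq gene span, for the 8 *HoxD* genes tested (left; red higher and blue lower at an adjusted p-value under 0.05, grey others) and the 8 genes tested within 1 Mb of the cluster (right), with dotted lines at a 2-fold change. The fold change is 3.21 at *Hoxd13* and 1.46 at *Hoxd12*, turns to -0.54 at *Hoxd11*, and is near 0 for the genes outside the cluster.

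The genes from *Hoxd9* to *Hoxd3* did not pass the test. *Hoxd9* was at 68.4, 74.8, 64.9 and 62.0 CPM in control and at 63.0, 71.4, 71.5 and 57.9 CPM in cKO libraries. These ranges overlapped, and the log2 fold change was -0.03 (SE 0.08, edgeR adjusted p = 0.853). *Hoxd8* was between 33.4 and 39.0 CPM in control and between 29.2 and 38.0 CPM in cKO libraries (log2 fold change -0.10, SE 0.09, edgeR adjusted p = 0.561). Of the 8 genes tested, these had the log2 fold changes nearest 0, which does not show that their levels were equal. Leaving out 1 library gave -0.08 to 0.03 for *Hoxd9* and -0.15 to -0.02 for *Hoxd8*.

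*Hoxd4*, a gene of the hindbrain and neck vertebrae, split the cKO libraries. It was at 22.1, 20.3, 18.4 and 16.0 CPM in control libraries, and at 29.7 and 31.0 CPM in cKO libraries 1 and 2 but 17.2 and 15.5 CPM in cKO libraries 3 and 4. The genotypes overlapped, and the log2 fold change was 0.28 (SE 0.23, edgeR adjusted p = 0.531). It ran from 0.11 to 0.43 when 1 library was left out, and was -0.31 with cKO library 4 alone against the controls and -0.32 with the fat markers as a covariate. *Hoxd3*, which patterns the first neck vertebra, was at 9.87, 8.78, 10.5 and 9.47 CPM in control and at 12.6, 16.2, 11.2 and 10.6 CPM in cKO libraries. All cKO libraries lay above all controls, by little in libraries 3 and 4, and the log2 fold change of 0.39 (SE 0.13) had an adjusted p of 0.106. Of the 8 fits that leave out 1 library, 1 had an adjusted p under 0.05, that without cKO library 4 (0.46, adjusted p = 0.0412 by edgeR), and the others ran from 0.121 to 0.296, the last without cKO library 2, where the log2 fold change was 0.25. With cKO library 4 alone against the controls the log2 fold change was 0.14 (adjusted p = 0.975), and with the fat markers as a covariate 0.12 (adjusted p = 0.933). *Hoxd4* and *Hoxd3* share 388 exon bases with each other, the antisense RNA *Hoxd3os1* covers 347 bases in both, and 53.1% of the exon bases of *Hoxd3* and 39.1% of those of *Hoxd4* lie in the read-through transcript *Gm28230*. The setting of the counting for strand and for reads in 2 genes is not given in the sources used here, so the values of both genes are uncertain.

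*Hoxd1*, the gene at the other end of the cluster, known for sensory neurons, was at or near the limit of detection. It had 3, 2, 2 and 2 counts in control libraries and 5, 6, 4 and 3 counts in cKO libraries, 0.0746 CPM and 0.156 CPM on average. Control library 1 and cKO library 4 both had 3 counts, so the genotypes were not apart in counts, and their order in CPM comes from library size. On the scale of log2(CPM + 0.1) the two-sided exact permutation test gave p = 0.029, the smallest its 70 arrangements can give, from which no difference is read here. No fold is given, because the controls were at or under 3 counts in each library.

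As a whole, the summed *HoxD* CPM overlapped between the genotypes, but the shares of the gene pairs at the *Hoxd13* end did not. The summed CPM of the 9 genes was 266 ± 13.5 in control and 245 ± 18.8 in cKO uteri (SD, n = 4), with ranges of 249 to 277 and 223 to 266 that overlap. *Hoxd12* and *Hoxd13* together made up 0.273%, 0.407%, 0.316% and 0.243% of *HoxD* counts in control and 1.61%, 1.31%, 2.28% and 1.55% in cKO libraries. *Hoxd10* and *Hoxd11* together made up 48.9% to 50.0% in control and 39.8% to 45.8% in cKO libraries. Neither share overlapped between the genotypes, and the first rests on few counts. The pairs are the 2 genes that rose and the 2 that fell, so this gap follows from values already given and is no separate result.

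The ratio of each gene to its neighbour within the same library asks whether adjacent genes changed by different amounts, and depends little on library size. The log2 ratio of *Hoxd13* to *Hoxd12*, with 0.1 CPM added to both, was -1.69, -0.25, -0.10 and -0.81 in control and 0.95, 1.35, 0.63 and 0.82 in cKO libraries. In CPM, *Hoxd13* was thus below *Hoxd12* in every control and above it in every cKO uterus, for transcripts of 2483 and 2534 bases, with means of -0.71 ± 0.72 and 0.94 ± 0.30 (SD, n = 4). The order in the controls rests on few reads, with 13 against 16 counts in control library 2 and 11 against 12 in control library 3. The log2 ratio of *Hoxd12* to *Hoxd11* was -5.87 ± 0.25 in control and -4.08 ± 0.40 in cKO libraries, a difference of 1.79. That of *Hoxd11* to *Hoxd10* differed by -0.28, from -1.41 ± 0.09 to -1.69 ± 0.18, and that of *Hoxd10* to *Hoxd9* by -0.22, from 0.50 ± 0.07 to 0.28 ± 0.08. For these 4 pairs the genotypes did not overlap and the two-sided exact permutation test gave p = 0.029, the smallest possible. They are not separate results, since adjacent pairs share a gene. The gap for *Hoxd12* to *Hoxd11* also follows from the rise of the first and the fall of the second. Adjusted over the 7 pairs by the Benjamini-Hochberg method, the exact p of 0.029 becomes 0.050, at the threshold and not under it. For the other 3 pairs, *Hoxd9* to *Hoxd8*, *Hoxd8* to *Hoxd4* and *Hoxd4* to *Hoxd3*, the differences were 0.07, -0.32 and -0.15, and the genotypes overlapped. These 3 depended on single libraries, and leaving out any 1 of the 8 gave -0.00 to 0.16, -0.49 to -0.10 and -0.28 to -0.05, with the -0.10 without cKO library 1 and the -0.05 without cKO library 4.

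**Figure D3:**
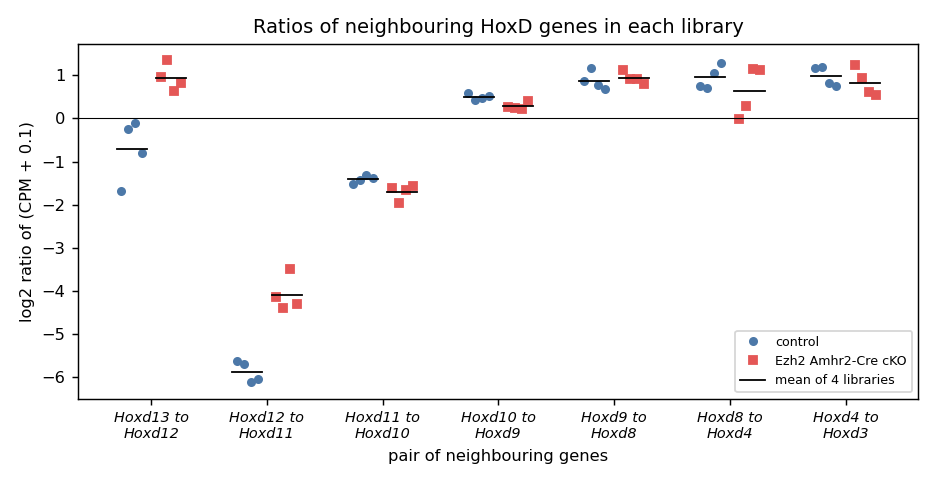
Log2 ratio of (CPM + 0.1) between neighbouring *HoxD* genes in each of 4 control (circles) and 4 cKO (squares) libraries, with genotype means as lines. The genotypes are apart for the 4 pairs from *Hoxd13* to *Hoxd9*, as with means of -0.71 and 0.94 for *Hoxd13* to *Hoxd12*, and overlap for the 3 pairs from *Hoxd9* to *Hoxd3*.

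Genes around the cluster served as a comparison for the surrounding chromosome. Of 47 genes in the RefSeq table within 1 Mb on either side or inside the cluster, 14 have a row in the count files and 8 were tested, 4 on each side. By edgeR's quasi-likelihood test, 0 of these 8 passed an adjusted p-value of 0.05, against 5.34% of all genes tested. At that share, 0 of 8 does not set these genes apart from others. By the same test 0 had an unadjusted p under 0.05, the lowest being 0.0535 for *Lnpk* and 0.0688 for *Chn1* and *Atf2*. Both counts were also 0 by DESeq2, by limma-voom and by edgeR's likelihood ratio test. The log2 fold changes of the 8 genes ran from -0.15 to 0.17. *Evx2*, a homeobox gene 6.7 kb beyond *Hoxd13* that shares its enhancers in the limb, had 0 counts in all 8 libraries. *Lnpk*, the nearest tested coding gene on that side at 88.8 kb, was between 31.9 and 33.9 CPM in control libraries. In cKO libraries it was between 29.4 and 31.8 CPM, without overlap but close together (log2 fold change -0.13, adjusted p = 0.244 by edgeR). The genotypes did not overlap for 12.3% of all genes tested. *Mtx2*, the nearest on the *Hoxd1* side at 60.7 kb, had a log2 fold change of -0.04 (adjusted p = 0.768).

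*Hox* genes of the other clusters with the same paralogue number code for closely related proteins, and those of groups 12 and 13 were nearly all silent in these uteri. No other gene of group 13 was tested: *Hoxa13* and *Hoxb13* each had 1 count in 1 cKO library and 0 in the others, and *Hoxc13* had 0 in all 8. *Hoxc12* likewise had 1 count in 1 cKO library. *Hoxd13* and *Hoxd12* were therefore the only genes of groups 12 and 13 with over 3 counts in any library. In group 11, *Hoxd11* with a log2 fold change of -0.54 and *Hoxa11* with -0.49 both fell (adjusted p of 0.00116 and 0.00522 by edgeR), and *Hoxc11* was at 0.57 (adjusted p = 0.249). In group 10, *Hoxd10* with -0.26 and *Hoxa10* with -0.62 fell (0.0395 and 3.77e-04), whereas *Hoxc10* rose with 1.26 (3.77e-04).

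Toward the other end of the clusters, several *HoxA* genes rose, and no *HoxD* gene passed the test. In group 9, only *Hoxc9* passed (1.29, adjusted p = 0.0408), and *Hoxd9*, *Hoxa9* and *Hoxb9* were at -0.03, 0.11 and 0.24. In group 3, *Hoxa3* with 1.34 and *Hoxb3* with 0.43 rose (1.05e-04 and 0.00275 by edgeR), and *Hoxd3* was at 0.39. In group 4, *Hoxc4* rose (0.88, adjusted p = 0.0491), and *Hoxa4*, *Hoxb4* and *Hoxd4* were at 1.01, 0.33 and 0.28. Of the 7 tested *HoxA* genes of groups 1 to 8, 5 had an adjusted p-value under 0.05, against 1 of 7 in *HoxB*, 2 of 4 in *HoxC* and 0 of 3 in *HoxD*. That 0 holds by edgeR's quasi-likelihood and likelihood ratio tests, DESeq2 and limma-voom, each with 1 gene, *Hoxd3*, at an unadjusted p under 0.05. In groups 9 to 13 the counts were 4 of 5 in *HoxD*, 2 of 3 in *HoxA*, 0 of 1 in *HoxB*, where *Hoxb9* had an adjusted p of 0.207, and 2 of 3 in *HoxC*, against 5.34% of all genes tested. Of the 4 in *HoxD*, *Hoxd10* was lost in 7 and *Hoxd12* in 3 of the 8 fits that leave out 1 library. Over the 25 tested *Hox* genes outside *HoxD*, the median log2 fold change was 0.55. At an adjusted p-value under 0.05, 10 of them rose and 2 fell, against 2.62% and 2.71% of all genes tested.

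**Figure D4:**
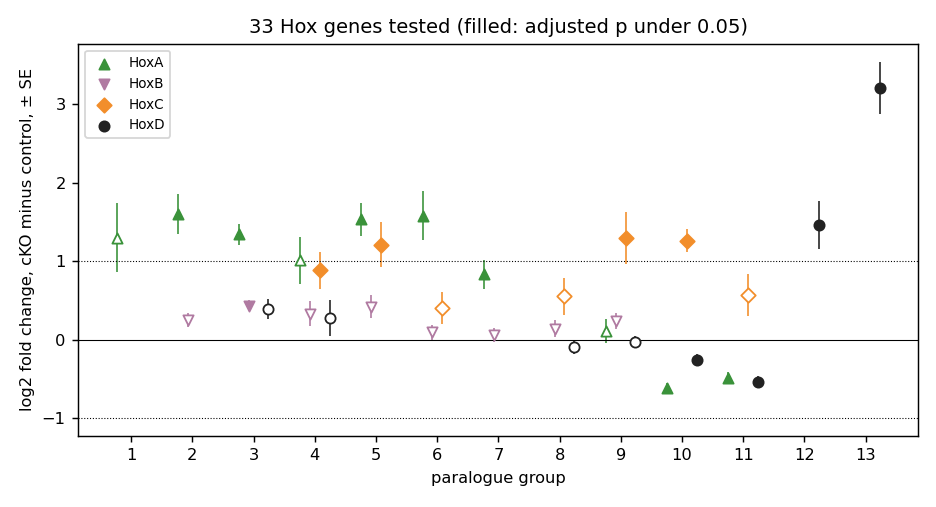
Log2 fold change between cKO and control (edgeR, bars are the standard error) of the 33 *Hox* genes tested, by paralogue group and cluster (triangle up *HoxA*, triangle down *HoxB*, diamond *HoxC*, circle *HoxD*). Filled symbols have an adjusted p-value under 0.05, and dotted lines mark a 2-fold change. *Hoxd13* at 3.21 is the highest point, and *Hoxa10*, *Hoxd11*, *Hoxa11* and *Hoxd10* are the filled points below 0.

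Within a library, the *HoxD* gene was also set against the *HoxA* gene of its group for the 5 groups with both tested. The log2 ratio of *Hoxd11* to *Hoxa11* was -2.26 ± 0.08 in control and -2.31 ± 0.23 in cKO uteri (SD, n = 4), with overlap and p = 0.74 by the exact permutation test, so no difference between these genes could be shown. The log2 ratio of *Hoxd10* to *Hoxa10* was -1.74 ± 0.05 in control and -1.38 ± 0.12 in cKO uteri, and that of *Hoxd3* to *Hoxa3* was 1.71 ± 0.27 and 0.77 ± 0.31. Neither of these ratios overlapped between the genotypes, with an exact permutation p of 0.029 each, which is 0.071 after adjustment over the 5 pairs. The differences for *Hoxd4* to *Hoxa4* and *Hoxd9* to *Hoxa9* were -0.64 and -0.14, and these overlapped. With 0.5 CPM added in place of 0.1 the first was -0.27.

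HOX proteins bind DNA together with TALE homeodomain cofactors of the PBX, MEIS and PREP (PKNOX) families. All 9 cofactor genes on the list were tested, and 3 had an adjusted p-value under 0.05, against 5.34% of all genes tested. *Meis1* rose from 172 ± 6.54 to 206 ± 9.10 CPM (SD, n = 4; log2 fold change 0.26, adjusted p = 0.0179 by edgeR). *Pknox1* fell with a log2 fold change of -0.25 (adjusted p = 0.0258) and *Pknox2* with -0.43 (adjusted p = 0.00515). The median over the 9 was 0.09.

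Of 15 genes on the list of those linked to HOX13 proteins in the limb and genital tubercle, 13 were tested, and 4 had an adjusted p-value under 0.05, 2 higher and 2 lower, against 5.34% of all genes tested. Not tested were *Shh* and *Fgf8*, with 0 counts in all 8 libraries. *Gdf5*, a joint-forming ligand of the BMP family, rose from 2.89 ± 0.847 to 5.95 ± 0.994 CPM (SD, n = 4; log2 fold change 1.05, adjusted p = 0.00851 by edgeR) and was the only DE gene on the list, against 1.30% of all genes tested. *Meis1*, which is on both lists, rose as given above. *Bmp7* fell from 38.4 ± 1.52 to 21.3 ± 1.28 CPM (-0.85, adjusted p = 2.71e-05) and *Bmp4* from 22.6 ± 2.08 to 16.4 ± 1.22 CPM (-0.46, adjusted p = 0.00968). The other 9 did not pass, and the median over the 13 was -0.02.

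The genes whose pattern over the 8 libraries was most like that of *Hoxd13* were found among 14598 genes outside the *Hox* clusters with a mean of at least 1 CPM in a genotype. Likeness was the root mean square difference of log2(CPM + 0.1), each gene taken relative to its control mean. The closest was *Igf2bp1*, which codes for an RNA-binding protein of the fetus, at a difference of 0.58, and its mean went from 0.716 ± 0.176 to 5.44 ± 0.969 CPM (SD, n = 4). *Grem1*, a secreted BMP antagonist, and the nonagouti gene *a*, which codes for a melanocortin receptor antagonist, were at 0.64 each. *Fndc3c1* was at 0.71 and *Col6a5*, a collagen VI chain, at 0.76. Their log2 fold changes were between 2.00 and 3.64, and cKO library 3 held the highest level of all 5, as it did for *Hoxd13*. Such likeness follows from the selection on these same 8 libraries and is no separate result.

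Markers of tissues near the uterus were read beside *Hoxd13* and *Hoxd12*. Of 6 hindgut markers *Cdx2* had 0 counts in all 8 libraries, and their summed CPM was 1.51 to 2.13 in control and 1.20 to 1.97 in cKO libraries. The 6 markers of the stratified squamous epithelium of vagina and cervix summed to 8.39 to 11.2 and 8.84 to 13.8 CPM, of which *Trp63* gave 5.64 to 7.85 CPM over the 8 libraries, with *Krt6a* at 0 in all libraries, and 0 of the 5 tested had an adjusted p-value under 0.05 by edgeR against 1, *Krt5*, at an unadjusted p under 0.05. *Krt5*, a keratin of basal cells, was between 0.347 and 1.18 CPM in control and at 4.66, 1.10, 0.585 and 4.34 CPM in cKO libraries, which overlap (log2 fold change 1.80, SE 0.68, adjusted p = 0.177). The 4 urothelium markers summed to 8.12 to 20.4 and 17.7 to 23.9 CPM, with adjusted p-values from 0.0706 for *Upk1a* to 0.816 for *Upk1b* by edgeR, and 2 of the 4 were higher in cKO uteri without overlap, *Upk1a* with a log2 fold change of 1.09 and *Upk2* with 1.07 (adjusted p = 0.108), against 5.90% of all genes tested that were higher without overlap. The 7 markers of skeletal muscle summed to 44.8 to 76.1 and 40.7 to 64.6 CPM, mostly from *Acta1*, and 5 of them were higher in every cKO library than in every control. Of these 5, 3 were among the genes tested, to which the share of 5.90% applies. *Myh3*, the embryonic myosin, rose with a log2 fold change of 4.08 (adjusted p = 0.00388 by edgeR) and *Tnnt3* with 0.80 (adjusted p = 0.0295), and *Mylpf* was at 0.82 (adjusted p = 0.0577). *Myog* and *Myod1*, the transcription factors of muscle precursors, were under the filter, at no more than 0.0387 and 0 CPM in the controls and between 0.185 and 1.36 and between 0.123 and 0.272 CPM in cKO libraries. The part of squamous epithelium, urothelium and skeletal muscle in the *Hoxd13* and *Hoxd12* result was not tested.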

How the data were processed

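RNA-seq of 8 whole uteri at PD10 was used, 4 per genotype as given in the labels. Per the labels and the methods, the authors ran Trimmomatic, HISAT2 (GRCm38) and featureCounts, and the deposited counts are whole reads per Entrez gene and library, with no normalization. Annotation release, strand setting and handling of reads shared by genes are not given in the sources used here. A second table, deposited by the authors from their edgeR run with TMM, holds an average log2 CPM per gene with log2 fold changes, F scores and p-values. It was used for gene symbols only, and a table of normalized values was not used.

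The counts were fitted with edgeR 4.0.16 (R 4.3.3) for genes whose CPM exceeded 0.2 in 4 or more libraries, by the robust quasi-likelihood test after TMM scaling, with a prior count of 0.125 and Benjamini-Hochberg adjustment over all 16658 genes. DE genes are those past both a 2-fold change and an adjusted p-value of 0.05. Standard errors are the log2 fold change divided by the square root of F. The test was run on simulated counts first. Ratios were tested with two-sided exact permutation tests (70 arrangements, smallest p 0.029). CPM per kb uses the longest GENCODE vM21 transcript paired with a curated RefSeq mRNA. Promoters and positions came from RefSeq tables, in which all 9 genes matched.

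Named are all 9 members, genes near the cluster, called genes of the lists, and the 5 genes most like the member with the smallest p-value. Genes that passed the adjusted p-value alone, and the values of paralogues that were not called, were added after their values were seen. The members and lists were chosen with earlier results of these data known. Alternatives were DESeq2 1.42.0, limma-voom (limma 3.58.1) and others; cKO library 4 alone and a fat score, the mean log2(CPM + 0.1) of the tested fat markers, were chosen after seeing the data. Between library pairs, chi-square per gene was 7.49 to 30.5, so none was a repeat of another. Nothing in the labels gives a batch.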

Additional observations from a re-analysis of the deposited data

How the results depend on the processing

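No log2 fold change of a *HoxD* gene that passed the test changed direction under any alternative, and that of *Hoxd4*, which did not pass, turned from 0.28 to -0.31 with cKO library 4 alone and to -0.32 with the fat score. Leaving out 1 library moved 3 values near 0 to the other sign: the log2 fold change of *Hoxd9* ran from -0.08 to 0.03, and the differences for *Hoxd9* to *Hoxd8* from -0.00 to 0.16 and for *Hoxd11* to *Hoxa11* from -0.11 to 0.05. It moved those for *Hoxd8* to *Hoxd4*, *Hoxd4* to *Hoxd3* and *Hoxd9* to *Hoxa9* by over 1.5 times, to -0.49 to -0.10, -0.28 to -0.05 and -0.21 to -0.08. The number of DE *HoxD* genes, 2 in the results above, was 4 with the adjusted p-value alone and 1 with a filter of CPM over 1 in 4 libraries, which removes *Hoxd12*, where 1 gene was higher. With the 2-fold threshold inside the test (edgeR's glmTreat) 1 gene, *Hoxd13*, was called and higher (adjusted p = 0.00512), and 0 were lower, with 2 higher and 0 lower at an unadjusted p under 0.05; that test asks for more than a 2-fold change, which *Hoxd11* and *Hoxd10* do not have. With cKO library 4 alone the counts called, higher and lower were 0, 0 and 0, with 2 higher and 2 lower at an unadjusted p under 0.05 and 1 cKO library in the fit. With the fat score as a covariate they were 1, 1 and 0, with 2 higher and 3 lower unadjusted, and this fit takes the cKO side from library 4, the 1 cKO library with a fat score in the range of the controls. Leaving out 1 library each gave 1 to 2 genes called, 1 to 3 higher and 1 to 2 lower at an adjusted p-value under 0.05. DESeq2, limma-voom, the likelihood ratio test, robust = FALSE, other normalizations, a prior count of 2 and no filter but 1 count each kept the counts at 2 called, 2 higher and 2 lower. A pseudocount of 0.5 CPM left 0 neighbour ratios and 0 ratios to *HoxA* genes under an adjusted exact permutation p of 0.05, with 4 and 2 at an unadjusted p under 0.05, and moved the difference for *Hoxd13* to *Hoxd12* from 1.65 to 1.14 and that for *Hoxd4* to *Hoxa4* from -0.64 to -0.27.

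Replicate numbers are shared by control and cKO titles, but samples of the same number did not deviate together (correlations of 0.02, 0.11, 0 and 0.19), and 1 of 4 controls was most like the cKO library of its number. With a replicate block 2 *HoxD* genes were called, as without it, and 253 of all genes in place of 217. At these depths a gene with no counts could be at up to 0.117 CPM, which bounds *Hoxc13* and the libraries in which *Hoxa13*, *Hoxb13* and *Hoxc12* had 0 counts, and the few counts of *Hoxd1* give it no precise value. With 4 uteri per genotype no exact test reaches below 0.029.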

Other observations

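Summed markers of other parts of the reproductive tract overlapped between the genotypes. The 3 oviduct markers summed to 49.5 to 64.6 CPM in control and 52.3 to 65.3 CPM in cKO libraries, mostly from *Pax8*, and the 4 ovary markers to 1.67 to 1.86 and 0.946 to 1.94 CPM, with *Fshr* at 0 counts in all 8 libraries. The 5 markers of uterine epithelium summed to 1044.6 to 1274.6 and 1202.0 to 1459.0 CPM, and the 5 of smooth muscle to 6833.5 to 8714.3 and 7633.9 to 8597.4 CPM. The lowest adjusted p-values by edgeR were 0.0766 for *Foxj1*, 0.0657 for *Krt19* and 0.0889 for *Des*. *Foxj1* was lower without overlap, at 1.23 to 1.89 CPM in control and 0.660 to 1.14 CPM in cKO libraries (log2 fold change -0.78). *Krt19* was higher without overlap, at 229 to 287 and 295 to 336 CPM (log2 fold change 0.27). Over all genes tested, 12.3% did not overlap. Of the 8 stroma markers, *Hoxa10* and *Hoxa11*, which are *Hox* genes themselves, were the 2 with an adjusted p-value under 0.05, against 5.34% of all genes tested.

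Of the 7 fat markers 6 were tested, and 1 had an adjusted p-value under 0.05, against 5.34% of all genes tested. This was *Pparg*, the master regulator of fat cells (0.0418 by edgeR), whose log2 fold change of 1.63 was the lowest of the 6. The other tested markers ran from 5.08 to 6.07, with adjusted p-values from 0.0573 to 0.0897 by edgeR. Their cKO libraries varied widely, as with *Fabp4*, between 0.659 and 1.43 CPM in control and between 1.61 and 107 CPM in cKO libraries. Inside the *HoxD* cluster, *Mir10b*, the microRNA gene near *Hoxd4*, had 0 to 15 counts per library and the antisense *Hoxd3os1* 3 to 12, both under the filter.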
